A study of Mus musculus with 2208 samples.

Results

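Microglia of CKp25 mice were compared with microglia of CK control littermates 1 week after p25 was switched on. The samples were chosen by their labels: 3 CKp25 mice and 3 CK mice at 1 week, each 3 months and 1 week old. After the first well of each mouse and wells with fewer than 1000 detected genes were left out, 264 CKp25 cells and 269 CK cells remained, 533 of the 2208 single-cell samples that the series holds from 25 mice. CKp25 mice 1, 2 and 3 gave 85, 87 and 92 cells, and CK mice 1, 2 and 3 gave 83, 94 and 92 cells. In this model the CamKII promoter drives a tetracycline-controlled activator in forebrain neurons, and a second transgene carries p25, a shortened form of the protein that activates the Cdk5 kinase, so the transgene product is made in neurons and not in the sorted cells. CK mice carry the activator alone. Hippocampi were digested with enzymes, and cells carrying CD11b and CD45 were sorted one to a well. CKp25 and CK mice sampled before induction (0 weeks) and at 2 weeks, 3 of each, served as points of comparison. The 0-week mice were 3 months old and the 2-week mice 3 months and 2 weeks old, so age differed between weeks. The 6-week mice, 4 CKp25 and 3 CK, entered the shared estimate of spread.

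Microglia are the resident macrophages of the brain. In healthy adult tissue they divide rarely, and after neuronal injury they can enter the cell cycle, release chemokines and lower the genes that mark the resting state. A dividing cell first makes the machinery that copies DNA and the enzymes that supply nucleotides, then the cyclins, kinases, kinetochore and spindle proteins of mitosis. The question was which of these programmes differed between the genotypes at the earliest time after induction.

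Values were FPKM (fragments scaled to transcript length and to the mapped fragments of the library). For each mouse, log2(FPKM + 1) was averaged over the kept cells to give the level of a gene, so a level moves both with the share of cells in which a gene was detected (FPKM of 1 or more) and with the level in those cells. Differences below are CKp25 minus CK on this log2 scale, with the standard error (SE) from limma, 3 mice per group. FPKM keep no read counts, so the depth behind a value is unknown. Even widely used genes were often listed at 0: Gapdh was at 0 in 24.6% of wells and Actb in 2.90%. The median number of detected genes per cell was 2497, 2788 and 2133 in CKp25 mice 1 to 3 and 2223, 2797.5 and 2364.5 in CK mice 1 to 3 (exact permutation p = 1.0, two-sided, smallest possible 0.1).

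All 533 cells carried at least 3 of 12 microglial and sorting markers. Itgam, which encodes CD11b, was detected in 90.2 to 90.8% of CKp25 cells and 91.6 to 96.8% of CK cells by mouse, and Cx3cr1 in 98.9 to 100% of the cells of every mouse. Cdk5r1, the gene from which p25 derives, did not differ, with levels of 1.37, 1.10 and 0.52 in CKp25 mice and 1.19, 1.48 and 0.96 in CK mice (difference -0.21 ± 0.23, adjusted p = 0.70). At most 5 cells of either genotype carried 3 or more markers of any other cell type tested. The summed levels of the neutrophil, dendritic cell and astrocyte lists did not overlap between genotypes. They ran from 1.39 to 2.2 in CKp25 mice against 2.59 to 3.28 in CK mice for the neutrophil list, of which 6 of 8 genes were at 0 in each genotype, S100a8, Mpo and Elane among them. For the dendritic list the range was 8.22 to 8.93 in CKp25 mice against 9.51 to 10.1 in CK mice, and for the astrocyte list 1.52 to 3.17 in CKp25 mice against 3.34 to 4.60 in CK mice. In each of these lists a gene that was also detected in most sorted microglia or in a large share of them (Cxcr2, Siglech and Slc1a3) made up most of the sum.

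CK mouse 1 stood apart from the other 5 mice. Rn45s, a ribosomal RNA precursor, took a median of 0.199% of its FPKM, against 3.41, 13.5 and 8.67% in CKp25 mice 1 to 3 and 3.29 and 5.31% in CK mice 2 and 3. The myeloid transcription factor gene Spi1 was detected in 24.1% of its cells, against 81.2, 87.4 and 65.2% in CKp25 mice and 88.3 and 71.7% in the other CK mice. It was the lowest of the 6 mice in 2728 of 9162 tested genes (29.8%), a share close to that of CKp25 mouse 3 (27.8%). Among the 327 genes higher in CKp25 the lowest mouse was CK mouse 1 in 167, CK mouse 2 in 50 and CK mouse 3 in 110. Its part in the results was not tested beyond leaving it out.

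Of 9162 genes tested, 327 were higher in CKp25 microglia (3.57%) and 34 were lower (0.371%) at an adjusted p below 0.05 (limma, Benjamini-Hochberg). In 318 of the 327 higher genes and in all 34 lower genes, the 3 CKp25 mice lay outside the range of the 3 CK mice, which the call itself largely fixes. Over all tested genes the 3 CKp25 mice lay above all CK mice in 1121 (12.2%) and below them in 746 (8.14%). Quantile normalization gave 255 higher and 111 lower genes, so higher genes made up 69.7% of those called with that scaling and 90.6% in the table as deposited. Without CKp25 mouse 2 the counts were 182 higher and 7 lower, and without CKp25 mouse 3 they were 432 and 11. Without CK mouse 1 they were 187 and 10, and without CK mouse 3 they were 202 and 24. Before induction no gene passed, higher (0%) or lower (0%), and 107 genes had an unadjusted p below 0.05 in limma, against 1561 at 1 week. The median difference over all tested genes was 0.05 at 1 week.

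The genotype effect at 1 week was larger than the effect at 0 weeks for 81 genes (0.884%) and smaller for 4 (0.0437%). It was larger than the effect at 2 weeks for 38 genes (0.415%) and smaller for 122 (1.33%). Both are tests of the difference between effects, each genotype and week having its own mice. The week 1 groups enter all of these contrasts, so the contrasts are not independent of one another.

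The smallest adjusted p of all tested genes was that of a mitosis gene. Top2a, the topoisomerase that untangles sister DNA before chromosomes part, had levels of 1.36, 1.66 and 1.40 in CKp25 mice 1 to 3 and 0.09, 0.02 and 0.16 in CK mice 1 to 3. It was detected in 22.4, 25.3 and 25% of CKp25 cells and in 1.20, 1.06 and 4.35% of CK cells. The lowest CKp25 mouse was well above the highest CK mouse, and the difference was 1.39 ± 0.10 (limma adjusted p = 7.9e-13). Mki67, the standard protein marker of dividing cells, was at 0.89, 1.32 and 0.96 in CKp25 mice and at 0.00, 0.07 and 0.10 in CK mice (1.00 ± 0.09, adjusted p = 4.6e-10). A gene was tested where 3 or more mice had it in 10% or more of their cells. Outside the CKp25 mice of 1 week, only CKp25 mouse 2 of 2 weeks reached this for Top2a (12.6%) and Mki67 (10.5%). Both were therefore tested only through the group in which they are high. Ccnb1, the cyclin that drives entry into mitosis, was listed at 0 in every cell of CK mice 1 and 3 and detected in 15.3, 18.4 and 12% of CKp25 cells (1.06 ± 0.10, adjusted p = 3.5e-10).

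**Figure D1:**
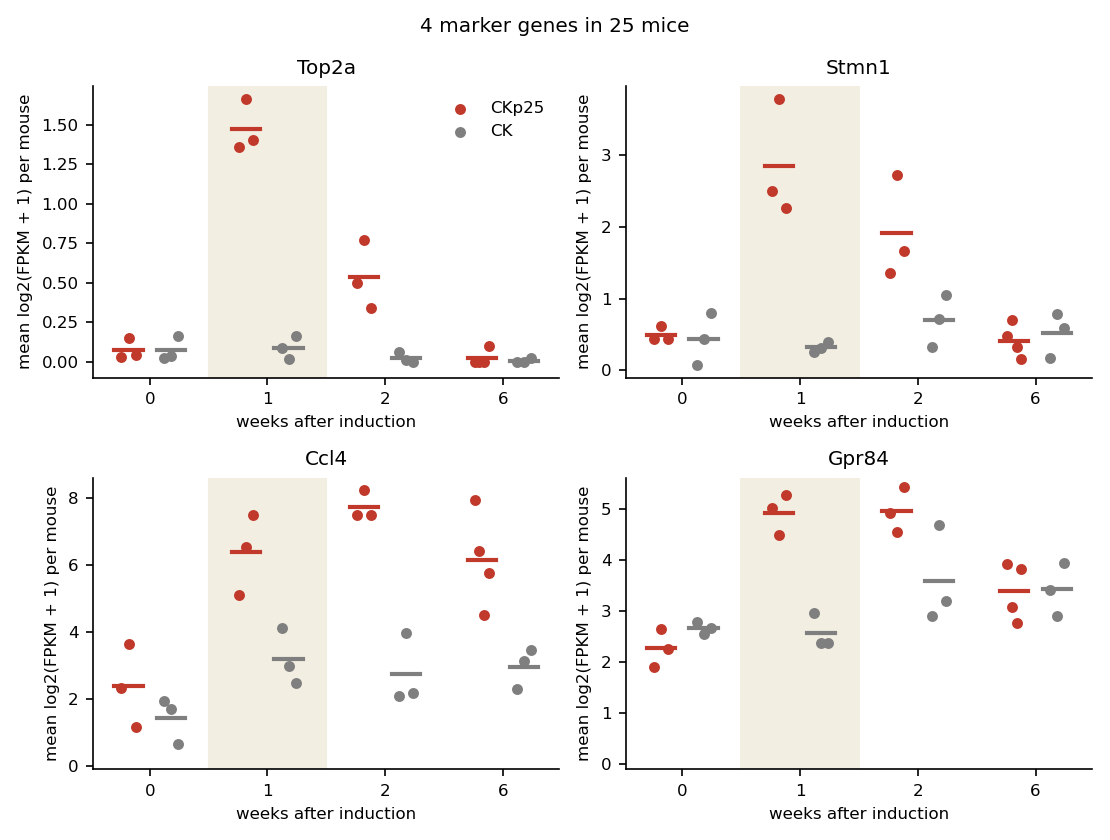
Mean log2(FPKM + 1) per mouse (y axis) for Top2a, Stmn1, Ccl4 and Gpr84 against weeks after induction (x axis), with CKp25 mice left of CK mice at each week; points are mice and bars are group means. At 1 week, shaded, all 3 CKp25 mice lie above all 3 CK mice in each panel, and Top2a averaged 1.47 in CKp25 and 0.09 in CK mice.

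Of 20 tested genes for mitotic kinases, cyclins and the checkpoint, 15 rose and none fell. Cks1b, a small subunit of cyclin-dependent kinases, had levels of 1.77, 1.35 and 1.17 in CKp25 mice and 0.00, 0.17 and 0.00 in CK mice (1.37 ± 0.14, adjusted p = 3.1e-09). Cdk1, the main mitotic kinase, rose by 1.24 ± 0.15 and Ccnf, an F-box protein that acts in late cell cycle, by 0.95 ± 0.10. In the kinetochore, centromere and condensin list 12 of 18 rose, among them Cdca8 and Birc5 of the chromosomal passenger complex, Spc25 of the kinetochore and Cenpa, the centromeric histone. Cdca8 was at 0.82, 1.17 and 0.90 in CKp25 mice and at 0.00, 0.08 and 0.04 in CK mice, with no overlap (0.92 ± 0.09, adjusted p = 2.3e-09). Of 13 spindle, kinesin and cytokinesis genes 7 rose, led by Ckap2l, a spindle-associated protein (0.86 ± 0.10), and Tacc3, a spindle stabiliser (0.99 ± 0.13). In all 3 lists together no member fell.

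Detection decided which of these genes could be tested. The 3 mitosis lists and the DNA replication list named 138 genes of the table, of which 88 passed the filter on low values and only 55 would have passed without the CKp25 mice of 1 week, so the 64 that rose cannot be read as a share of the programme. Of the 55 that needed no CKp25 mouse of 1 week to be tested, 32 rose, against 254 of the 8912 genes tested on the same terms. By list, 3 of 8 such mitotic kinase, cyclin and checkpoint genes rose and 6 of 12 kinetochore, centromere and condensin genes. So did 4 of 10 spindle, kinesin and cytokinesis genes and 19 of 25 replication genes. Over all 138 genes, filtered or not, 135 had a positive difference and the median was 0.55, against 9056 positive genes among the 23951 of the whole table. With no filter, 105 of the 138 passed, of 378 higher genes among 21217. Leaving out 1 mouse at a time gave 57 to 67 of the 88, and 60 without CK mouse 1.

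Promoter sequences were set beside these genes because the cell cycle homology region (CHR) is a known element of genes expressed in mitosis, usually with CCAAT boxes a short way upstream. RefSeq windows (GRCm38.p6) from 250 bases before to 50 bases after the annotated start were searched on both strands for the CHR letters TTTGAA and for CCAAT. Of 94 listed mitosis genes 84 had a window, and 52 of these held the CHR letters (61.9%), against 1068 of 7384 tested genes with a window (14.5%) and 5466 of the 27025 mouse genes with a RefSeq window (20.2%). Within 60 bases before and 20 bases after the start the letters were present in 33 of 84 mitosis genes (39.3%), against 213 of 7384 tested genes (2.89%). CCAAT was present in 59 of 84 (70.2%), against 3165 of 7384 (42.9%). Among the genes higher in CKp25, 63 of 263 with a window held the CHR letters (23.95%), and among the genes lower 8 of 25 did (32%). Within 60 bases before and 20 bases after the start these were 31 of 263 (11.8%) and 4 of 25 (16%). A match is a description of the letters and not a site of binding. The stretches below run from 150 bases before to 20 bases after the start on the minus strand of GRCm38.p6, at chr11:99024170-99024339 for Top2a, chr7:135716360-135716529 for Mki67, chr4:124936898-124937067 for Cdca8, chr17:24251390-24251559 for Ccnf and chr13:100786467-100786636 for Ccnb1. Capitals mark TTTGAA or CCAAT in either orientation.
Top2a: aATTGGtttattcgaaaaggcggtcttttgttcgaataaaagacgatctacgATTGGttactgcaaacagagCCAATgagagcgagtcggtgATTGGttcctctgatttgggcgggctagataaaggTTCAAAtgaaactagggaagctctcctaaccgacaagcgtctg
Mki67: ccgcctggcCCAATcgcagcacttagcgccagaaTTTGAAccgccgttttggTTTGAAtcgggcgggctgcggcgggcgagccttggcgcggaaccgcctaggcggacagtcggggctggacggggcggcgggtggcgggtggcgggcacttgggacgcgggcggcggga
Cdca8: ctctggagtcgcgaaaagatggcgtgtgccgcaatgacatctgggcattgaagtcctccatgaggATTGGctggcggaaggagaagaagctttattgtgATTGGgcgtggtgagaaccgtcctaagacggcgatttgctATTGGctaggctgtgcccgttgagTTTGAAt
Ccnf: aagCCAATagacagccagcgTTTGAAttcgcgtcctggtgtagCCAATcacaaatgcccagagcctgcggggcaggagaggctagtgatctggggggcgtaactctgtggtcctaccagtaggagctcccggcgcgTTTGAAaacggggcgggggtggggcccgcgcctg
Ccnb1: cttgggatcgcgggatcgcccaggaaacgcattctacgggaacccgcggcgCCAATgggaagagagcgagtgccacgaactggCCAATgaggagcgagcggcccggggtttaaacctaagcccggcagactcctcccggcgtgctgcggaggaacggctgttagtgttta
Top2a holds a CHR match starting 23 bases before the start, with 4 CCAAT matches upstream of it in the printed stretch. Ccnb1 holds 2 CCAAT matches and no TTTGAA in this window. Other forms of the element were not searched.

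DNA replication genes rose with the mitosis genes. Of 37 tested, 30 rose and none fell, and all 45 in the table had a positive difference. The MCM helicase, which opens the double helix, was represented by Mcm6 at 1.83, 1.81 and 1.94 in CKp25 mice and 0.16, 0.26 and 0.49 in CK mice (1.55 ± 0.20, adjusted p = 2.6e-07). Mcm5, of the same complex, was at 1.85, 2.09 and 1.95 in CKp25 mice and 0.37, 0.45 and 0.78 in CK mice (1.43 ± 0.18, adjusted p = 1.8e-07). Without CK mouse 1, 27 of the 37 rose. Uhrf1, which carries DNA methylation over to the new strand, was at 1.08, 1.79 and 1.26 in CKp25 mice and 0.19, 0.13 and 0.05 in CK mice. It was detected in 18.8, 32.2 and 22.8% of CKp25 cells and in 6.02, 4.26 and 1.09% of CK cells (1.25 ± 0.13, adjusted p = 2.3e-09). Pcna, the sliding clamp of the polymerases, was also common in CK mice, in 61.2, 59.8 and 40.2% of CKp25 cells and 25.3, 42.6 and 25% of CK cells, with levels of 4.44, 3.96 and 3.04 in CKp25 mice and 1.55, 2.68 and 1.63 in CK mice (1.86 ± 0.39, adjusted p = 0.0019). Pole, the leading-strand polymerase, was listed at 0 in CK mice 1 and 2 and detected in 10.6, 18.4 and 16.3% of CKp25 cells. The letters GCGGGAA, one form of the E2F element known from replication genes, were found in the windows of 14 of 34 replication genes (41.2%), against 731 of 7384 tested genes (9.90%) and 9 of 84 mitosis genes (10.7%).

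Nucleotide supply and chromatin assembly genes followed. In nucleotide synthesis 10 of 22 tested genes rose, and 7 without CK mouse 1. The filter favoured high members in these lists too. Of the 19 nucleotide genes that needed no CKp25 mouse of 1 week to be tested, 8 rose. Tk1, the S phase thymidine kinase, was at 1.29, 1.44 and 1.55 in CKp25 mice and 0.07, 0.34 and 0.10 in CK mice (1.25 ± 0.12, adjusted p = 4.6e-10). Rrm2, the S phase subunit of ribonucleotide reductase, was at 1.22, 1.16 and 0.91 in CKp25 mice and 0.00, 0.12 and 0.11 in CK mice, again without overlap (1.02 ± 0.11). Nme2, a nucleoside diphosphate kinase, was common in both genotypes, with 54.1, 73.6 and 52.2% of CKp25 cells and 30.1, 36.2 and 34.8% of CK cells (2.05 ± 0.42, adjusted p = 0.0013). Of 20 histone and chromatin assembly genes 9 rose (7 without CK mouse 1), led by Ezh2, the Polycomb methyltransferase of histone H3 (1.16 ± 0.13, adjusted p = 2.8e-08), and including Hells, a chromatin remodeller (0.60 ± 0.08). Of the 16 genes of this list that needed no CKp25 mouse of 1 week to be tested, 5 rose. Of 13 tubulin and stathmin genes 4 rose (30.8%, against 3.57% of all tested genes). Stmn1, which destabilises microtubules, was at 2.50, 3.77 and 2.26 in CKp25 mice and 0.25, 0.32 and 0.39 in CK mice. It was detected in 31.8, 50.6 and 28.3% of CKp25 cells and 3.61, 5.32 and 5.43% of CK cells (2.52 ± 0.30, adjusted p = 9.3e-08). Tubb6, a beta-tubulin, rose by 1.44 ± 0.20.

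The same cells carried many of these genes. Per cell, the number of the 138 replication and mitosis genes detected had medians of 12, 14 and 9 in CKp25 mice 1 to 3 and 8, 10 and 8 in CK mice 1 to 3. The upper ends differed far more, with highest cells at 104, 108 and 100 genes in CKp25 mice and 20, 20 and 37 in CK mice. At least 20 genes were detected in 25, 35 and 26 CKp25 cells (29.4, 40.2 and 28.3%) and in 1, 1 and 2 CK cells (1.20, 1.06 and 2.17%). Top2a was detected in 19, 22 and 23 cells of the CKp25 mice and in 1, 1 and 4 cells of the CK mice, and Mki67 was detected with it in 13, 18 and 16 CKp25 cells and in 0 CK cells. The cut at 20 genes was set after the distribution was seen, and these per-cell numbers are descriptions. A cell with more genes detected has more chances on each list. In CKp25 mice the Top2a-positive cells had medians of 3159, 3708.5 and 2940 detected genes, against 2280.5, 2660 and 1896 in the other cells.

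**Figure D2:**
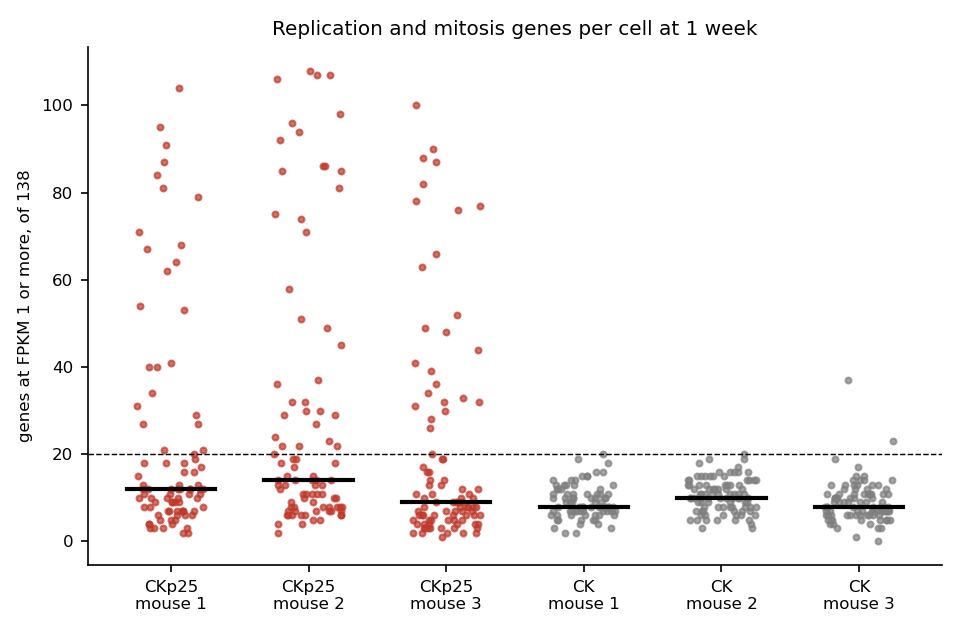
Number of the 138 replication and mitosis genes detected at FPKM 1 or more (y axis) in each kept cell, for CKp25 mice 1 to 3 and then CK mice 1 to 3 (x axis); each point is a cell and the dashed line marks 20 genes. The CKp25 mice have 25, 35 and 26 cells at or above the line and the CK mice 1, 1 and 2.

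Among regulators of the G1 to S step, 7 of 17 tested genes rose. Of the 15 that needed no CKp25 mouse of 1 week to be tested, 5 rose. E2f2 (0.44 ± 0.09) and E2f8 (0.53 ± 0.10), members of the E2F family of transcription factors, were both low in level. Myc, a growth-promoting transcription factor, was at 1.95, 1.85 and 2.2 in CKp25 mice and 0.68, 0.93 and 0.70 in CK mice (1.23 ± 0.29, adjusted p = 0.0057). Cdkn1a encodes p21, an inhibitor of cyclin-dependent kinases and a target of p53, and it rose as well. Its levels were 1.90, 3.02 and 2.73 in CKp25 mice and 0.80, 1.26 and 0.80 in CK mice, with 28.2, 50.6 and 42.4% of CKp25 cells positive against 13.3, 27.7 and 15.2% of CK cells (1.60 ± 0.32, adjusted p = 0.0008). Without CK mouse 1, 4 of the 17 passed. In the list of p53 targets and DNA damage genes 3 of 15 rose (20%, against 3.57% of all tested genes). They were Rad51ap1 of homologous recombination (0.88 ± 0.09), Usp1, a deubiquitinase of DNA repair (0.62 ± 0.12), and Bax, which promotes apoptosis (1.26 ± 0.38, adjusted p = 0.049). Bax lost its call when CKp25 mouse 1 or 2 or CK mouse 1 or 3 was left out, so 2 of the 15 passed without CK mouse 1. Only 13 of the 15 needed no CKp25 mouse of 1 week to be tested, and 1 of these rose. Of 26 cell death and survival genes 2 rose, Bax and Bcl2, an inhibitor of apoptosis (0.39 ± 0.12), and no gene of this list passed as higher when any 1 of those 4 mice was left out, and 1 did without CK mouse 2. The 2 calls were 7.69% of the list, against 3.57% of all tested genes.

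Chemokine levels were higher in every CKp25 mouse than in any CK mouse for 4 genes. The table holds 21 CC and CXC chemokine genes, of which 9 could be tested and 4 rose (44.4% of those tested, against 3.57% of all tested genes). Ccl4 was at 5.11, 6.56 and 7.49 in CKp25 mice and 4.11, 2.98 and 2.47 in CK mice, with a difference of 3.19 ± 0.69 (adjusted p = 0.0036), the largest of the named genes. It was detected in 52.9, 67.8 and 71.7% of CKp25 cells and 44.6, 34.0 and 29.3% of CK cells. Ccl3, another inflammatory CC chemokine, was at 4.52, 5.82 and 5.61 in CKp25 mice and 3.38, 2.22 and 1.70 in CK mice (2.88 ± 0.53, adjusted p = 0.00032). Ccl12, a ligand of Ccr2, was at 4.90, 3.51 and 4.16 in CKp25 mice and 2.05, 1.31 and 1.56 in CK mice (2.55 ± 0.48). Cxcl16, a ligand of Cxcr6, rose by 1.62 ± 0.44 (adjusted p = 0.024), and its call was lost when CKp25 mouse 1 or 2 or CK mouse 1 or 3 was left out. When mice were compared by the log2 of their mean FPKM, in which a few cells with high values weigh most, Ccl4, Ccl3 and Ccl12 no longer passed (adjusted p = 0.22, 0.23 and 0.27). The loss was not particular to chemokines. Gpr84, Tnf, C5ar1, Cdkn1a, Myc, Mcm5, Mcm6, Pcna, Nme2, Sdf2l1, Lpl and Abca9 were among the other named genes that lost their call there. Top2a, Mki67, Ccnb1, Stmn1 and Tagln2 kept theirs. Mean FPKM of Ccl4 was 1188, 1368 and 1794 in CKp25 mice and 707, 382 and 219 in CK mice.

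Ccl4 was not restricted to the cells with Top2a. In CKp25 mice it was detected in 78.9, 95.5 and 87.0% of Top2a-positive cells and in 45.5, 58.5 and 66.7% of the others. Tnf was detected in 68.4, 68.2 and 60.9% of Top2a-positive cells and in 25.8, 33.8 and 27.5% of the others. The part of the higher gene number of the Top2a-positive cells in these shares was not tested.

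Of 16 tested cytokine and growth factor genes 2 rose (12.5%, against 3.57% of all tested genes). Tnf, the inflammatory cytokine, was at 2.57, 2.71 and 2.46 in CKp25 mice and 1.35, 1.00 and 0.21 in CK mice (1.73 ± 0.28, adjusted p = 4.5e-05). Pdgfa, a growth factor, rose by 0.83 ± 0.24 (adjusted p = 0.042), and Tnf alone passed when any 1 CKp25 mouse or CK mouse 1 or 3 was left out. Of 22 genes for NF-kappaB subunits and feedback 3 rose (13.6%). Plaur, the urokinase receptor, was at 0.96, 1.43 and 1.5 in CKp25 mice and 0.00, 0.14 and 0.04 in CK mice (1.23 ± 0.21, adjusted p = 8.6e-05). Cd83, a surface marker of activated antigen-presenting cells, was at 3.33, 4.91 and 4.46 in CKp25 mice and 1.58, 2.41 and 2.28 in CK mice (2.14 ± 0.50), and Relb, an NF-kappaB subunit, rose by 0.97 ± 0.24. Plaur alone of the 3 passed without CK mouse 1, Cd83 was also lost without CKp25 mouse 2 and Relb without CKp25 mouse 1. The NF-kappaB consensus, searched by the usual degenerate form on both strands, was present in the windows of 9 of 22 genes of this list (40.9%) and 4 of 14 chemokine genes (28.6%), against 462 of 7384 tested genes (6.26%). Among the genes higher in CKp25 it was present in 15 of 263 windows (5.70%), below the share of all tested genes.

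Receptors moved in both directions. Among 23 G protein-coupled and innate receptors 2 rose (8.70%, against 3.57% of all tested genes) and 1 fell (4.35%, against 0.371%). Gpr84, a receptor for medium-chain fatty acids, was at 5.01, 4.49 and 5.27 in CKp25 mice and 2.95, 2.37 and 2.37 in CK mice. It was detected in 62.4, 69.0 and 71.7% of CKp25 cells and 38.6, 41.5 and 37.0% of CK cells (2.36 ± 0.46, adjusted p = 0.00057). C5ar1, the receptor for complement fragment C5a, was at 5.11, 4.57 and 5.08 in CKp25 mice and 3.23, 3.06 and 2.68 in CK mice (1.93 ± 0.40, adjusted p = 0.0015), and it was the single member to rise among 17 complement and Fc receptor genes. That single call (5.88% of the list, against 3.57% of all tested genes) says little of the list. Cxcr2, a receptor for neutrophil-attracting chemokines, fell, with levels of 2.2, 1.39 and 1.49 in CKp25 mice and 3.19, 2.59 and 3.08 in CK mice (-1.26 ± 0.33, adjusted p = 0.019). Its call was lost when CKp25 mouse 2 or 3 or CK mouse 1 or 3 was left out.

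**Figure D3:**
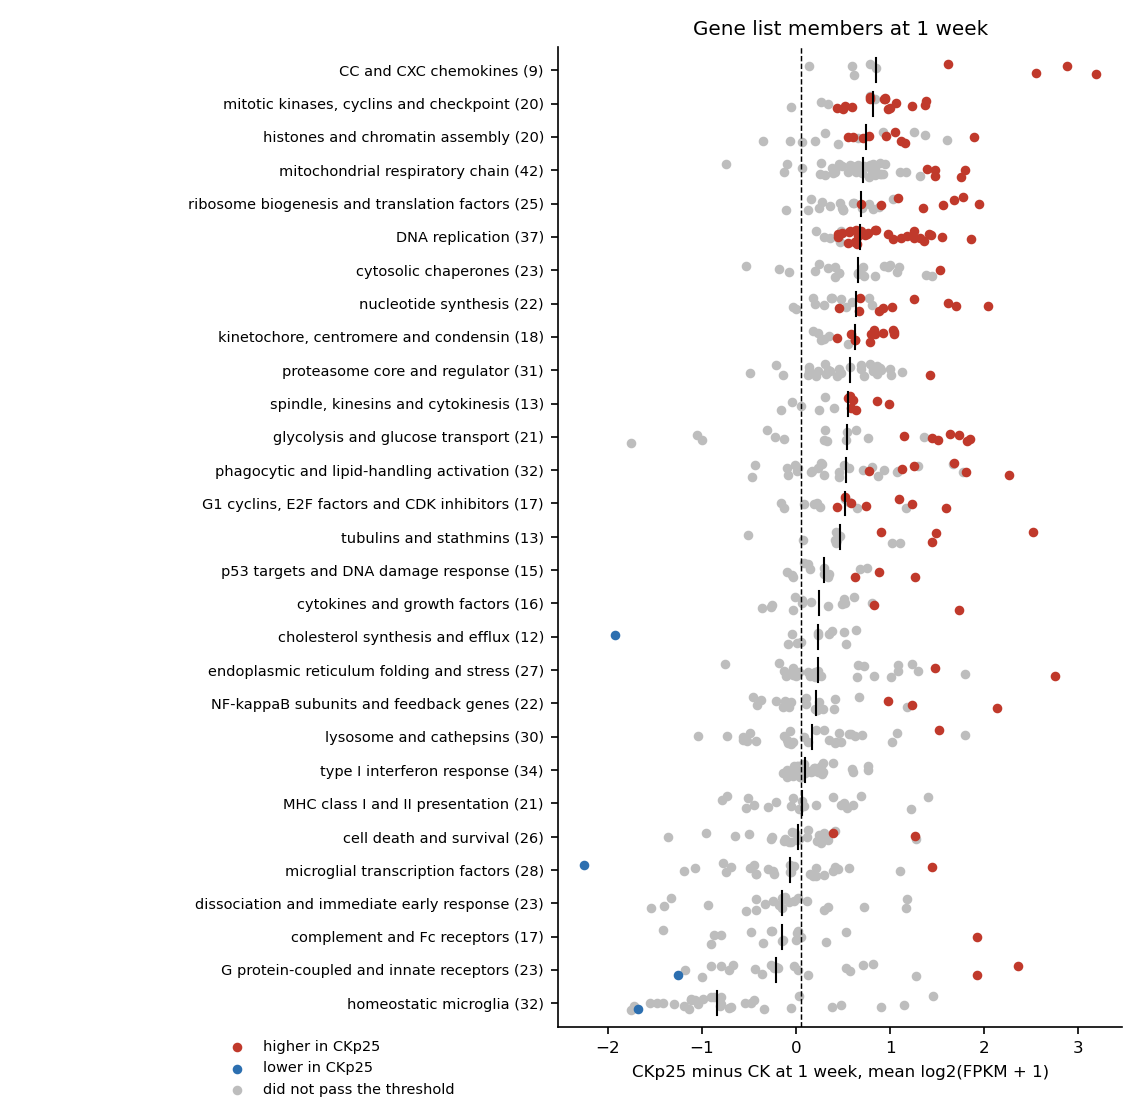
Mean log2(FPKM + 1) of CKp25 less that of CK mice at 1 week (x axis) for the tested members of 29 gene lists (rows, ordered by list median, with the number tested in parentheses); points are genes, coloured by whether they rose, fell or did not pass, bars are list medians and the dashed line is the median of all tested genes, 0.05. Members that rose are densest in the replication and mitosis lists, and the homeostatic list has the lowest median, -0.84.

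Calls were also found among secretory and biosynthetic genes. Of 27 endoplasmic reticulum folding and stress genes 2 rose (7.41%, against 3.57% of all tested genes). Sdf2l1, a partner of endoplasmic reticulum chaperones, was at 5.50, 6.00 and 4.85 in CKp25 mice and 0.73, 3.37 and 3.97 in CK mice (2.76 ± 0.53, adjusted p = 0.00051), and without CK mouse 1, whose value was the lowest, the difference was 1.78 (adjusted p = 0.037). Creld2, a stress-induced disulphide isomerase, rose by 1.47 ± 0.33, and without CK mouse 1 its adjusted p was 0.11. The endoplasmic reticulum stress element, CCAAT and CCACG with a spacer of fixed length, searched on both strands, was present in 8 of 27 windows of this list (29.6%), against 13 of 7384 tested genes (0.176%). Among the genes higher in CKp25 it was present in 2 of 263 windows (0.76%), that of Creld2 among them. It is shown for Creld2, in which it lies on the opposite strand and starts 126 bases before the start, with CGTGG and ATTGG in capitals at its ends, on the plus strand of GRCm38.p6 at chr15:88819496-88819665.
Creld2: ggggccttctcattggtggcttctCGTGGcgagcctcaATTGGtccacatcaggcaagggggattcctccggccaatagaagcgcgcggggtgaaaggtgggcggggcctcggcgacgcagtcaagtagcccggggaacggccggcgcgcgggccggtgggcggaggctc
The window of Sdf2l1 did not hold these letters.

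Of 25 ribosome biogenesis and translation genes 8 rose (32%, against 3.57% of all tested genes). Among them were Srm, spermidine synthase (1.78 ± 0.33), and Nop56, of the box C/D snoRNP (1.56 ± 0.36, lost without CK mouse 3). In this list 4 passed when CKp25 mouse 1 or CK mouse 1 or 3 was left out. Of 21 glycolysis genes 7 rose (33.3%), among them Tpi1 (1.73 ± 0.41), Ldha (1.85 ± 0.49) and Pkm (1.82 ± 0.53). However, none passed without CKp25 mouse 2, 4 without CKp25 mouse 1 or CK mouse 1, and 2 without CK mouse 3. Of 42 respiratory chain genes 5 rose (11.9%), against none when CKp25 mouse 1 or 2 or CK mouse 1 was left out, 8 without CKp25 mouse 3 and 1 without CK mouse 3. One of 31 proteasome genes rose, Psmb4 (1.43 ± 0.42), and none when CKp25 mouse 1 or 2 or CK mouse 1 or 3 was left out. One of 23 cytosolic chaperones rose, Hspd1 (1.54 ± 0.39), none when CKp25 mouse 1 or 2 or CK mouse 3 was left out, 3 without CKp25 mouse 3 and 2 without CK mouse 2. The shares of proteasome genes (3.23%) and cytosolic chaperones (4.35%) that rose were near the 3.57% of all tested genes and say nothing particular of these lists. Rps2, a ribosomal protein gene of large difference (2.77 ± 0.80, adjusted p = 0.046), was at 8.19, 8.72 and 7.88 in CKp25 mice and 2.96, 7.56 and 5.96 in CK mice. Without CK mouse 1 its difference was 1.5 (adjusted p = 0.37), and its call was also lost without CK mouse 3 or any 1 CKp25 mouse.

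Of 32 tested genes for phagocytic and lipid-handling activation 6 rose (18.75%, against 3.57% of all tested genes). Cst7, a cystatin of injury-responsive microglia, was listed at 0 in all cells of CK mice 1 and 2 and at 0.32 in CK mouse 3, and stood at 1.27, 2.51 and 1.59 in CKp25 mice (1.68 ± 0.46, adjusted p = 0.026). Its call was lost without CKp25 mouse 2 and without any 1 CK mouse. Lpl, lipoprotein lipase, was at 1.42, 1.90 and 1.27 in CKp25 mice and 0.06, 0.36 and 0.41 in CK mice (1.25 ± 0.27, adjusted p = 0.0019). Capg, an actin-capping protein, rose by 1.81 ± 0.38 and Cd52, a small surface glycoprotein, by 2.27 ± 0.54. Cd52 lost its call without CKp25 mouse 2 or CK mouse 3. The count for the list was 1 without CKp25 mouse 2, 2 without CK mouse 3 and 3 without CK mouse 1. Outside the lists, Tagln2, an actin-binding protein, was at 3.1, 3.12 and 2.73 in CKp25 mice and 0.98, 0.91 and 0.97 in CK mice (2.03 ± 0.33, adjusted p = 3.4e-05), and its call held in every alternative computed. Rbm3, a cold-inducible RNA-binding protein, rose by 2.12 ± 0.49, and Pea15a, a regulator of ERK signalling, by 2.05 ± 0.48. The call of Rbm3 was lost without CK mouse 3, and that of Pea15a without CKp25 mouse 1, CKp25 mouse 2 or CK mouse 3.

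**Figure D4:**
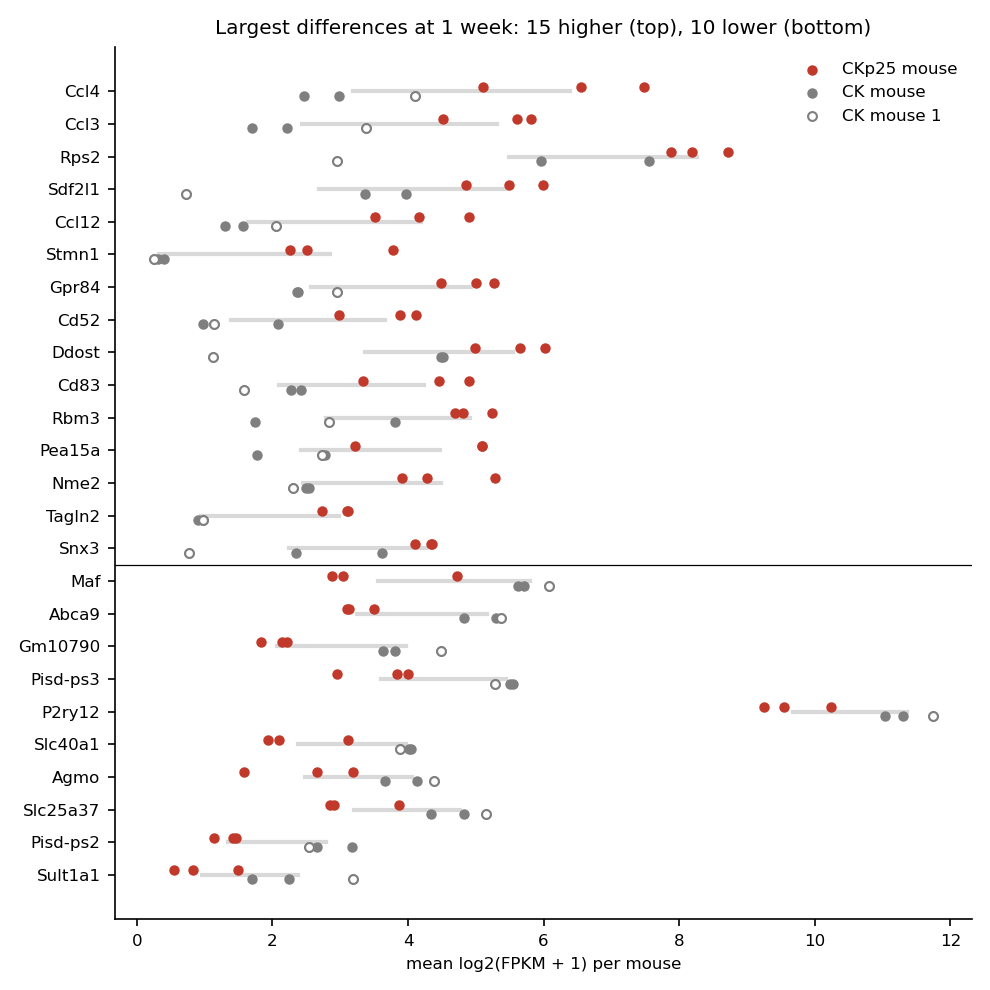
Mean log2(FPKM + 1) per mouse (x axis) for the called genes without overlap between genotypes that had the 15 highest and 10 lowest differences (rows, separated by the line); points are mice, coloured by genotype, with CK mouse 1 as an open circle. Rps2, Sdf2l1 and Ddost spread widely among the CK mice, whereas Stmn1 and Tagln2 do not.

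Genes lower in CKp25 microglia were few. Among 32 tested homeostatic microglial genes 1 fell (3.125%, against 0.371% of all tested genes). Of the 32, 26 had a negative difference, and the list median was -0.84, against a median of 0.05 over all tested genes. P2ry12, the ADP receptor that guides processes towards injury, was at 10.24, 9.26 and 9.55 in CKp25 mice and 11.75, 11.30 and 11.03 in CK mice (-1.68 ± 0.49, adjusted p = 0.041). It was detected in at least 98.8% of the cells of every mouse, so the difference lay in level, with mean FPKM of 1690, 923 and 1181 in CKp25 mice and 4055, 2855 and 2476 in CK mice. Its call was lost without any 1 mouse other than CKp25 mouse 1. Entpd1, an ATP-degrading ectoenzyme, had a difference of -1.72 ± 0.52 and just missed the threshold (adjusted p = 0.051). Without overlap but also not past it were Cx3cr1, the fractalkine receptor (-1.14 ± 0.45, adjusted p = 0.16), and Siglech (-1.30 ± 0.45, adjusted p = 0.098).

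Among 28 microglial transcription factor genes Maf fell and Hif1a rose. The 1 of 28 that rose (3.57%) equals the share over all tested genes, and the 1 that fell (3.57%) compares with 0.371% of all tested genes. Maf, which restrains macrophage self-renewal, was at 4.73, 2.88 and 3.04 in CKp25 mice and 6.07, 5.72 and 5.62 in CK mice (-2.25 ± 0.65, adjusted p = 0.039), and its call held without CKp25 mouse 1 and was lost without any 1 of the other 5 mice. Hif1a, the oxygen-sensing factor, rose by 1.44 ± 0.40, and by 0.98 without CK mouse 1 (adjusted p = 0.31), and its call was also lost when CKp25 mouse 1 or 2 or CK mouse 3 was left out. Of 12 cholesterol genes the single change was a fall (8.33%, against 0.371% of all tested genes). It was that of Abca9, a lipid transporter of the ABC family, at 3.50, 3.1 and 3.13 in CKp25 mice and 5.38, 4.83 and 5.30 in CK mice (-1.92 ± 0.44, adjusted p = 0.0053). The call of Abca9 held without each mouse in turn. Slc40a1, the iron exporter ferroportin, fell by 1.59 ± 0.47 and Slc25a37, the mitochondrial iron importer mitoferrin, by 1.56 ± 0.44. Sult1a1, a sulphotransferase, and Agmo, which cleaves ether lipids, fell by 1.42 ± 0.36 and 1.58 ± 0.44. All 4 calls were lost without CKp25 mouse 2, CKp25 mouse 3 or CK mouse 1, those of Slc40a1 and Agmo also without CK mouse 2, and those of Slc40a1 and Slc25a37 also without CK mouse 3. The pseudogenes Pisd-ps2 and Pisd-ps3, near copies of the phosphatidylserine decarboxylase gene, and the predicted gene Gm10790 also fell, and reads of near copies could have been split between them. With 1 mouse left out at a time, Pisd-ps3 lost its call for each mouse except CKp25 mouse 1, Pisd-ps2 lost it for CK mouse 3 and Gm10790 for CK mouse 1.

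Lists of interferon response and antigen presentation showed no call. None of 34 tested interferon genes passed in limma, with 1 higher and 0 lower at an unadjusted p below 0.05 and a median difference of 0.09. None of 21 MHC genes passed, with 2 higher and 0 lower unadjusted and a median of 0.06. None of 23 genes of the dissociation and immediate early response passed, with 1 higher and 2 lower unadjusted and a median of -0.14.

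Of the 81 genes with a larger effect at 1 week than at 0 weeks (0.884% of all tested genes), 39 were in the replication and mitosis lists, and none of the 88 tested members had a smaller one. Of the 88, 33 passed the filter only through the CKp25 mice of 1 week, Top2a and Mki67 among them, so 39 cannot be read as a share. Among the other 55 the effect was larger for 15, against 35 of the 8912 genes tested on the same terms. For Top2a the difference between effects was 1.39 (adjusted p = 3.2e-08), for Mki67 1.01, for Mcm6 1.43 and for Stmn1 2.47. Outside the cell cycle it was 2.76 for Gpr84 (adjusted p = 0.016), 2.30 for C5ar1, 1.60 for Tnf, 1.27 for Plaur and 1.72 for Cdkn1a. For Ccl4 the difference between effects was 2.25 and did not pass (adjusted p = 0.49), and group means at 0 weeks were 2.37 in CKp25 mice and 1.43 in CK mice.

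Some replication and mitosis genes differed less between genotypes at 2 weeks. In these lists 18 of 88 members had a larger effect at 1 week than at 2 weeks and none a smaller one (0.415% and 1.33% of all tested genes), and the other members did not pass. The filter favours such members here too, and among the 55 tested without the CKp25 mice of 1 week the effect was larger for 4, against 10 of 8912 genes. Top2a averaged 1.47 at 1 week and 0.54 at 2 weeks in CKp25 mice, against 0.09 and 0.02 in CK mice, and its effect was larger at 1 week by 0.87 (adjusted p = 0.00013). Ccnb1 and Cks1b were each larger by 0.84, Tipin, of the replication fork, by 1.25 and Ezh2 by 0.89. At 6 weeks Top2a averaged 0.02 in CKp25 mice and 0.01 in CK mice. For Stmn1 the difference of 1.31 did not pass (adjusted p = 0.15).

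Other genes had a smaller effect at 1 week than at 2 weeks, as did 122 of all 9162 tested genes (1.33%). In the interferon list 28 of 34 members did, with a median difference between effects of -1.93, and in the MHC list 9 of 21. Ifitm3, an interferon-induced membrane protein, differed between genotypes by 0.77 ± 0.57 at 1 week and by 6.21 ± 0.57 at 2 weeks. H2-K1, an MHC class I heavy chain, differed by 1.40 ± 0.57 at 1 week and 4.68 ± 0.57 at 2 weeks. In the phagocytic and lipid-handling list 11 of 32 had a smaller effect at 1 week, and Cst7 was one of these at -4.45 (adjusted p = 3.7e-05), as was Cd52 at -3.1. The cytokine list had 3 of 16 such members, among them Csf1, a growth factor of microglia, at -1.51 (adjusted p = 0.024), and the complement list 3 of 17. For the chemokine Ccl4 the difference between effects, -1.80, did not pass (adjusted p = 0.69), nor did that of Gpr84, 0.99 (adjusted p = 0.79).

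**Figure D5:**
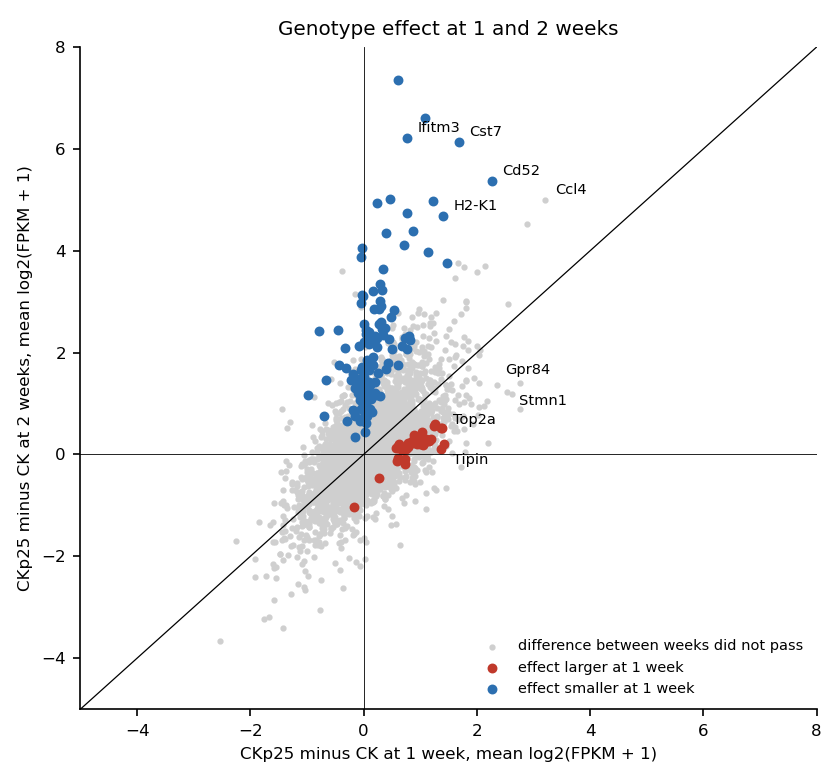
Mean log2(FPKM + 1) of CKp25 less that of CK mice at 1 week (x axis) and 2 weeks (y axis), for all tested genes (grey) and for genes whose effect was larger or smaller at 1 week than at 2 weeks (coloured); each week has its own mice. Top2a lies below the diagonal and Cst7 and Ifitm3 lie far above it.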

How the data were processed

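Single hippocampal cells were sorted into plates and libraries made with Smart-seq2 (full-length, without molecular identifiers). The authors deposited 1 table of FPKM for 23951 genes in 2208 wells. Cufflinks 2.2 and build mm9 are named per the submitters' processing notes. The annotation, filters and strand setting are not given in the sources used here. The submitters state 2183 libraries and a median of 251353 mapped reads per cell. The first well of each of the 25 mice was left out, because most of these wells hold many more genes than the rest and what they hold is not stated. No column was without a sample (0).

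Cells with 1000 or more genes at FPKM 1 or more were kept, log2(FPKM + 1) was averaged per mouse, and a gene was tested where 3 or more mice each had it in 10% or more of their cells. All 25 mice in 8 groups entered 1 limma fit (3.58.1, trend and robust options, R 4.3.3) with 17 residual degrees of freedom, Benjamini-Hochberg over 9162 genes, threshold 0.05. The mice are separate animals per the labels. Shares and depth were compared by exact permutation over mice. On simulated data the fit was checked for recovery of known changes. Figures and tables used Python 3.11.15.

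Named genes were the 15 largest positive and 10 largest negative called differences without overlap, members of 29 pathway lists that passed or were among the 4 smallest p of a list, 4 markers, cell type markers and Cdk5r1. The result of the lysosome and cathepsin list is not reported here. Members, lists and tests were chosen with earlier results of these data known. Promoter windows came from RefSeq (GRCm38.p6) by gene symbol or older symbol, and are not on the build of the table. Alternatives covered the first wells, cell and gene filters, pseudocounts, scaling, the log2 of the mean, the model, a replicate block and leaving out each mouse.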

Additional observations from a re-analysis of the deposited data

Results flagged for a closer look

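These results stand out because the genotype effect at 1 week differed from that at another week by a test of the difference itself (limma, adjusted p below 0.05 over 9162 genes). The effect was larger at 1 week than at 0 weeks for 81 genes and smaller for 4, and larger at 1 week than at 2 weeks for 38 genes and smaller for 122. Each value below is the effect at 1 week minus the effect at the other week, on the log2(FPKM + 1) scale. Some of the replication and mitosis genes, Top2a and Mki67 among them, passed the filter on low values only through the CKp25 mice of 1 week.

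Against 0 weeks, mitosis genes gave 1.39 for Top2a, 1.29 for Cks1b, 1.14 for Birc5, 1.09 for Cdk1, 1.01 for Mki67, 0.99 for Ccnb1, 0.97 for Ccnf and 0.96 for Tacc3. Spc25 stood at 0.93, Cdca8 at 0.92, Ckap2l at 0.91 and Cenpa at 0.76. Replication genes gave 1.43 for Mcm6, 1.24 for Mcm5 and for Uhrf1, 1.08 for Tipin and 0.57 for Pole. Nucleotide, chromatin and repair genes gave 1.22 for Tk1, 1.05 for Ezh2, 1.01 for Rrm2, 0.83 for Rad51ap1 and 0.64 for Hells. The microtubule genes Stmn1 and Tubb6 gave 2.47 and 1.32, the regulators Cdkn1a, E2f2 and E2f8 gave 1.72, 0.56 and 0.56, and the actin-binding Tagln2 gave 1.89. The receptors Gpr84, C5ar1 and Plaur gave 2.76, 2.30 and 1.27, and the cytokine Tnf gave 1.60. Sult1a1 gave -2.08 and Pisd-ps2 gave -1.93.

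Against 2 weeks, mitosis genes gave 0.87 for Top2a, 0.86 for Birc5, 0.84 for Ccnb1 and for Cks1b, 0.78 for Mki67, 0.75 for Ccnf, 0.66 for Cdca8, 0.64 for Ckap2l, 0.60 for Cenpa and 0.59 for Spc25. Tipin gave 1.25, Ezh2 0.89, Uhrf1 0.70, Tk1 0.66, Rrm2 0.59, Rad51ap1 0.50, Pole 0.44 and Hells 0.43. The effect was smaller at 1 week for Ifitm3 at -5.45, Cst7 at -4.45, H2-K1 at -3.27, Cd52 at -3.10 and Csf1 at -1.51.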

How the results depend on the processing

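Every gene named above that passed at 1 week kept its direction in every alternative computed. Cdk5r1, which did not pass, ran from -0.498 to 0.023 over the alternatives, with -0.40 without CKp25 mouse 1 and the highest value without CKp25 mouse 3. Bst2, an interferon response gene, stood at -0.044 with the log2 of the mean FPKM. The 327 higher and 34 lower genes became 83 and 7 with the log2 of the mean FPKM, 137 and 20 with genes detected in 25% of cells, and 170 and 8 with only the 6 mice of 1 week. Lower genes numbered 111 with quantile normalization. Leaving out 1 mouse gave 182 to 432 higher and 7 to 35 lower genes. With the log2 of the mean FPKM the median of all genes was -0.17, against 0.05. At 0 weeks 5 genes passed with no filter. Effects larger at 1 week than at 0 weeks numbered 123 in cells with 2000 or more genes, 36 with the log2 of the mean, 149 with no filter, 6 with the 25% filter, 50 without limma's trend and robust options, and 62 to 125 without 1 mouse (125 without CKp25 mouse 3). Smaller ones numbered 10, 1, 11, 0 and 2 in that order, 7 with a pseudocount of 10, 9 with quantile normalization, and 1 to 6 without 1 mouse. Effects larger at 1 week than at 2 weeks numbered 67 in cells with 2000 or more genes, 0 with the log2 of the mean, 62 with no filter, 0 with the 25% filter, 16 without limma's options, and 27 to 38 without 1 mouse. Smaller ones numbered 6 with the log2 of the mean, 81 without limma's options and 88 to 113 without 1 mouse. The causes of these shifts were not tested.

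A fit with the mouse number as a replicate block gave 436 higher and 67 lower genes and 10 smaller effects than at 0 weeks. Deviations of same-numbered mice correlated at 0.19, 0.22 and 0.12 at 0 weeks, 0.03, 0.12 and 0.26 at 1 week, and 0.25, 0.34 and 0.08 at 2 weeks. All numbers matched best at 0 weeks, but CKp25 mouse 1 correlated best with CK mouse 2 at 1 week (0.21) and CKp25 mouse 3 with CK mouse 1 at 2 weeks (0.14). The labels tie no mice together, so the numbers were not taken as pairs. Depth per value is unknown, and 3 mice per genotype limit what could be detected.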
